A study of Mus musculus with 2 samples.

Results

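Oxidative phosphorylation is carried out in the inner mitochondrial membrane by 5 protein complexes. Complexes I and II pass electrons from NADH and succinate to ubiquinone, complex III passes them on to cytochrome c, and complex IV (cytochrome c oxidase) hands them to oxygen. Complexes I, III and IV pump protons, and complex V (ATP synthase) uses the returning protons to make ATP. Most subunits are encoded in the nucleus and a few in mitochondrial DNA, and only the nuclear-encoded ones are described here. They are expressed in nearly all tissues, the embryonic lung included, and several subunits of complex IV have additional isoforms restricted to muscle or testis.

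The members were all probe sets that the platform annotation assigns to exactly 1 gene whose symbol names a subunit of complexes I to V (symbols beginning with Ndufa, Ndufb, Ndufc, Ndufs, Ndufv, Uqcr, Cox4 to Cox8 or Atp5, and Sdha to Sdhd). The rule itself uses no signal. Genes of assembly factors (Ndufaf and Sdhaf) and the isoforms Ndufa4l2 and Cox4i2 were left out. This gave 167 of 34945 probe sets and 80 of 18193 genes, of which 35 belong to complex I, 4 to complex II, 8 to complex III, 16 to complex IV and 17 to complex V. The probe sets were compared between 2 arrays of whole mouse lung at E15.5 (the embryonic day). One array carried a pool of 4 RNA samples of TAZ-deficient embryos and the other a pool of 4 RNA samples of their wild type littermates. TAZ, the product of Wwtr1, is a coactivator of TEAD transcription factors in the Hippo pathway. The labels do not say how TAZ was removed or in which cells, and give no further allele, strain or agent for either group.

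With 1 array of 1 pool per group there is no replicate, so no difference below has a test, a p-value or an error over embryos. Signals are MAS5 intensities on a linear scale, and a gene's signal is compared between the arrays. Across genes, signal serves only to rank probe sets by brightness and is no measure of relative transcript level. Values below 15.2 signal units, the median of both arrays, were raised to 15.2 before a ratio was taken, and a gene was called measured when it exceeded this floor on either array. Each gene is represented by its brightest probe set unless stated otherwise, and a ratio is always TAZ-deficient over wild type. The arrays followed their labels, with Wwtr1 at 11.3 in the TAZ-deficient pool and 791.2 in the wild type pool, at least 52.1-fold lower. All 6 lung epithelial markers were above the floor on both arrays, with ratios between 0.992 (Nkx2-1) and 1.18 (Sox9), 4 of them above 1, and a median log2 ratio of 0.08. All 6 measured of 12 heart muscle markers were lower in the TAZ-deficient pool (summed signal of the list 615.7, against 815.6 in wild type), with Myh6, Myl2, Tnni3, Nppa, Ryr2 and Pln below the floor on both arrays. Of 5 lung mesenchyme markers 2 were above 1 and 3 below, with Tbx5 1.255-fold lower. Of 4 endothelial markers 1 was above 1 and 2 below. The red cell list summed to 4077.5 in the TAZ-deficient and 1944.1 in the wild type pool. Its embryonic globins Hba-x, Hbb-bh1 and Hbb-y were between 3.05-fold and 3.60-fold higher. The other measured genes of that list, Slc4a1 and Alas2, were 1.32-fold and 1.09-fold lower. The part of these cells in the values of the subunits was not tested. In whole lung, fewer cells of a type and less RNA per cell cannot be told apart.

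The subunits of oxidative phosphorylation read nearly alike in both pools. Of 76 measured genes, 65 (85.5%) were within 1.1-fold, 2 were higher and 2 were lower in the TAZ-deficient pool by 1.2-fold or more, and 0 reached 1.5-fold in either direction. Among all 12040 measured genes, 8.04% were at least 1.2-fold higher and 10.6% at least 1.2-fold lower, and 1.29% and 1.49% were at least 1.5-fold higher and lower. Most subunits are bright, and bright probe sets differ less between arrays. Among the brightest 25% of measured genes by mean log2 signal, a set chosen after values were seen and beginning at 321.2 units, were 71 of the 76 members (93.4%), and 1 of these was at least 1.2-fold higher and 0 lower, against 2.29% higher and 1.59% lower of all 3010 genes in that set. Within 1.1-fold were 90.1% of these 71 members and 80.6% of all genes in the set. The SD of the log2 ratio over genes was 0.08 for these members and 0.12 for the set as a whole. These shares describe 2 arrays, and the genes are not independent replicates.

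On the deposited scale, 55 of the 76 members (72.4%) had a ratio above 1, against 46.7% of all measured genes. Among the brightest 25% the share was 74.6% of members and 56.8% of all genes. The median log2 ratio of the members was 0.05 (1.03-fold), and that of all measured genes -0.01. The excess of ratios above 1 depended on the scaling of the arrays. After quantile normalization 38 of 76 members (50%) were above 1 with a median of 0.0013, and after loess correction 39 (51.3%) with a median of 0.0055. Under these settings the share for all measured genes was 47.9% and 48.6%. The ratio of all probe sets moved with brightness, the loess trend being 0.98-fold near 100 signal units, 1.03-fold near 1500 and 1.04-fold near 3000, while the median signal of the members was 1442.1. The only error that these arrays contain is the disagreement between probe sets of 1 gene. For the 36 members with at least 2 probe sets among the brightest 25%, this disagreement between the 2 brightest amounted to an SD of 0.06 per probe set on the log2 scale, against 0.10 for all 907 such genes. It holds no variation between embryos, pools or arrays.

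**Figure D1:**
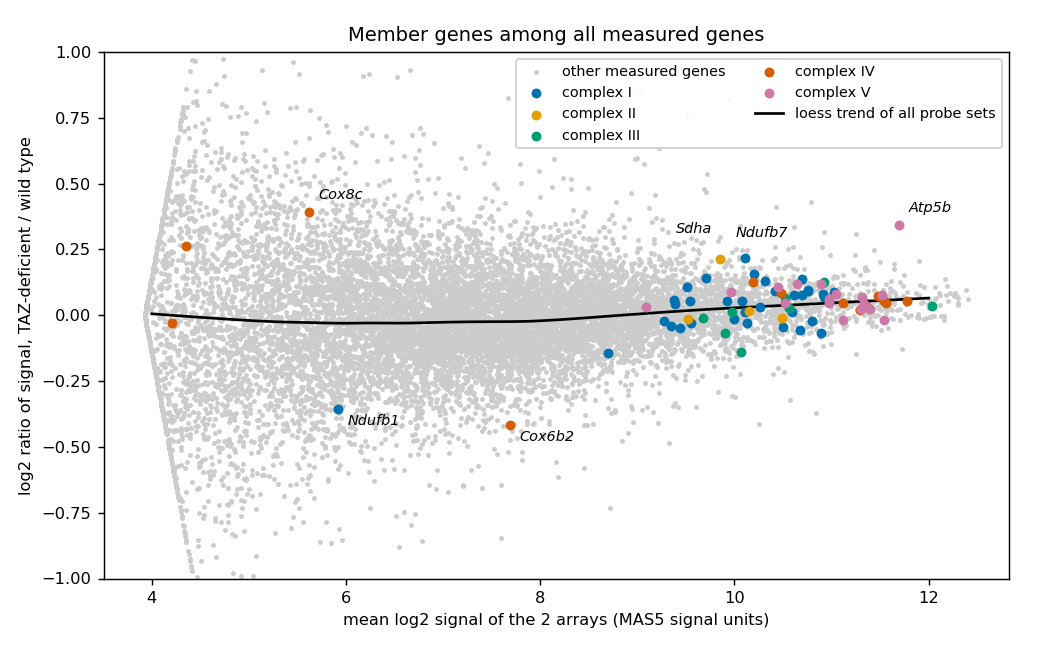
Log2 ratio (vertical) against mean log2 signal (horizontal) for each measured gene, with members coloured by complex and the loess trend of all probe sets as a black line. Most members lie at high signal, where the cloud is narrow and the trend slightly above 0, and Atp5b stands above the other bright members; 23 genes with log2 ratios beyond 1 in size are outside the axis.

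**Figure D2:**
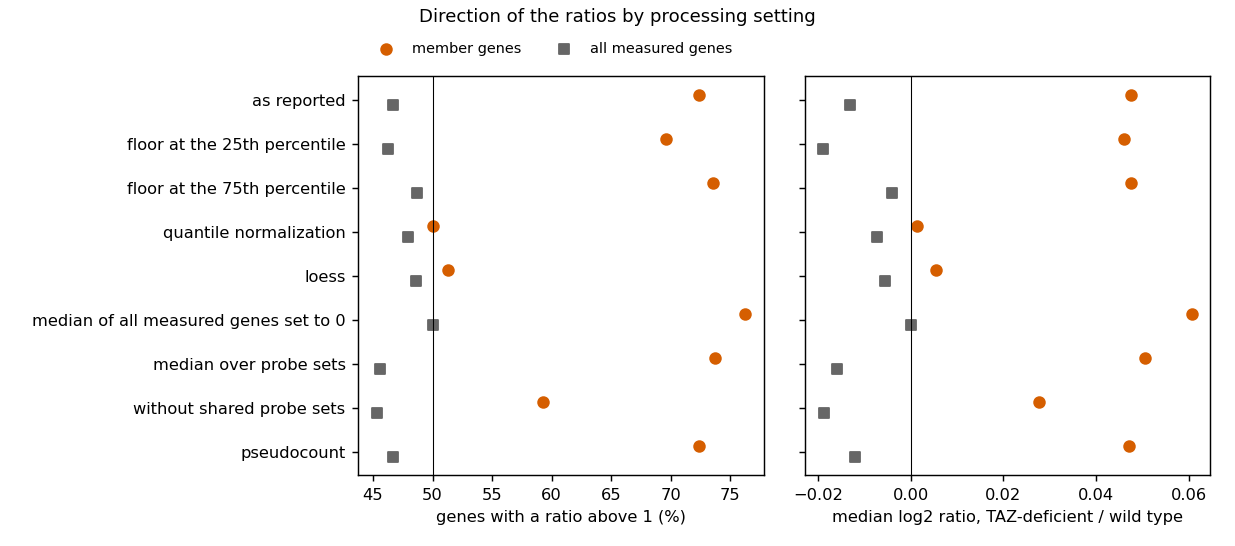
Share of genes with a ratio above 1 (left) and median log2 ratio (right) for member genes (circles) and all measured genes (squares) under each processing setting. The members stand at 72.4% as reported, 50% after quantile normalization and 51.3% after loess.

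The largest difference among the bright members was that of Atp5b, the catalytic beta subunit of the F1 part of ATP synthase. Its single probe set read 3730.4 in TAZ-deficient and 2941.8 in wild type lung, 1.27-fold higher. The difference kept its direction under the 8 settings that gave it a value, and was 1.22-fold after quantile normalization and after loess. With 1 bright probe set, the floors, the choice among probe sets and the pseudocount could not change that direction. Of the 3010 brightest genes, 29 (0.963%) had a higher ratio, and 50 (1.66%) after loess. The neighbouring F1 subunits did not differ to that extent. Atp5a1, the alpha subunit that forms the hexamer with beta, read 2724.3 in TAZ-deficient and 2679.2 in wild type lung by its brightest probe set, and its other 2 probe sets read 1891.2 and 47.3 in TAZ-deficient lung, against 1707.1 and 41.4 in wild type lung. Atp5c1, the gamma subunit of the rotating shaft, read 2612.6 in TAZ-deficient lung and 2491.1 in wild type lung. The shaft subunits Atp5d (delta) and Atp5e (epsilon) were 1.03-fold and 1.09-fold higher. All 5 F1 genes had ratios above 1 on the deposited scale, with Atp5a1 below 1 under quantile normalization and loess. Atp5c1 and Atp5d had a log2 ratio of 0 after quantile normalization. With 1 probe set, the value of Atp5b has no second measurement on these arrays.

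The remaining ATP synthase genes were within 1.1-fold. The c ring, which turns as protons pass, is made from Atp5g1, Atp5g2 and Atp5g3, which encode the same mature protein. Atp5g1 read 1030.3 in TAZ-deficient and 969.1 in wild type lung. Atp5g2 read 2178.1 in TAZ-deficient and 2057.2 in wild type lung, and Atp5g3 read 2955.5 in TAZ-deficient and 2996.3 in wild type lung, so that their ratios ran from 0.99 to 1.06. The peripheral stalk, which holds F1 against the membrane part, is represented by Atp5pb, Atp5h, Atp5j and Atp5o, with ratios between 0.99 (Atp5o) and 1.05 (Atp5pb). The other membrane subunits Atp5j2, Atp5k, Atp5l, Atp5md and Atp5mpl had ratios between 1.02 and 1.09. On the deposited scale, 15 of 17 complex V genes (88.2%) were above 1, against 46.7% of all measured genes and 56.8% of the 3010 brightest. Quantile normalization and loess turned Atp5a1, Atp5h and Atp5j2 to below 1, and quantile normalization also Atp5mpl. Atp5c1 and Atp5d had a log2 ratio of 0 after quantile normalization. The median log2 ratio of complex V was 0.06 on the deposited scale and 0.02 after loess. Without Atp5b, no ATP synthase gene reached 1.2-fold by its brightest probe set.

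Complex I was close to wild type at its catalytic core. The core subunits carry the flavin and the iron-sulphur clusters that lead electrons from NADH to ubiquinone. Ndufv1, which binds NADH and flavin, read 759.8 in TAZ-deficient and 705.0 in wild type lung, and its second brightest probe set went the other way, at 694.2 in TAZ-deficient and 721.4 in wild type lung. Its partner Ndufv2 read 1708.0 in TAZ-deficient and 1617.5 in wild type lung. Ndufs1, the large iron-sulphur subunit, was the lowest of the core, at 395.9 in TAZ-deficient and 437.6 in wild type lung (1.105-fold lower), and was measured by 1 probe set. Of the 3010 brightest genes, 7.04% had a lower ratio than Ndufs1. Ndufs3, Ndufs7 and Ndufs8, which form the connection towards ubiquinone, had ratios of 0.98, 1.03 and 1.06. By the brightest probe set of each gene, the core thus spanned log2 ratios from -0.14 to 0.11, around a median of 0.06. Other core probe sets lay outside this range in either direction. A probe set of Ndufv2 read 1268.4 in TAZ-deficient and 1084.3 in wild type lung (1.17-fold higher). One of Ndufs8 read 518.0 in TAZ-deficient and 633.6 in wild type lung (1.22-fold lower).

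The accessory subunits of complex I surround the core and are needed for its assembly and stability. Of 29 genes 28 were measured, Ndufb4 being below the floor on both arrays (2.4 in TAZ-deficient and 4.7 in wild type lung), and 18 had ratios above 1 and 10 below. Ndufb7 was the highest, at 1194.9 in TAZ-deficient and 1027.8 in wild type lung (1.16-fold higher), and its second probe set read 753.6 in TAZ-deficient and 683.7 in wild type lung. Ndufa2, Ndufv3, Ndufb8 and Ndufb6 followed, with log2 ratios of 0.16, 0.14, 0.14 and 0.13. Ndufb1 was the lowest, at 53.5 in TAZ-deficient and 68.5 in wild type lung (1.28-fold lower), by 1 dim probe set. The ratios of the remaining 22 accessory genes lay between 0.96 (Ndufb11) and 1.07 (Ndufa4), and these genes include Ndufab1, the mitochondrial acyl carrier protein, and the X-linked Ndufa1 and Ndufb11. Ndufb11 read 1852.8 in TAZ-deficient and 1940.0 in wild type lung by the probe set used for it. Its other 2 probe sets went the other way, at 1906.4 and 1897.2 in TAZ-deficient lung, against 1827.2 and 1828.6 in wild type lung. Ndufa4 has since been assigned to complex IV, and counting it there gave a median log2 ratio of 0.05 for complex I and 0.06 for complex IV. Over the 34 measured genes of complex I the median log2 ratio was 0.05 on the deposited scale, 0.03 after loess and -0.0023 on the 25 genes left without shared probe sets, whose names mark that they may match more than 1 transcript or gene.

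Complex II, succinate dehydrogenase, links the tricarboxylic acid cycle to the respiratory chain. Sdha, the flavoprotein that oxidises succinate, read 993.8 in TAZ-deficient and 856.8 in wild type lung (1.16-fold higher) by its brightest probe set, whereas its second probe set read 484.3 in TAZ-deficient and 487.8 in wild type lung. The 2 measurements of Sdha therefore disagree. The iron-sulphur subunit Sdhb read 1432.1 in TAZ-deficient and 1444.0 in wild type lung. The membrane anchors Sdhc and Sdhd read 1142.5 and 732.0 in TAZ-deficient lung, against 1128.9 and 740.2 in wild type lung. The dimmer probe sets of Sdhc and Sdhd read 383.6 and 147.2 in TAZ-deficient lung, against 349.8 and 125.6 in wild type lung, and had log2 ratios of 0.13 and 0.23. Complex II had 2 genes above and 2 below 1 and a median log2 ratio of 0.0027, or 0.09 with the median over probe sets.

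Complex III contains the core proteins Uqcrc1 and Uqcrc2 and the Rieske iron-sulphur protein Uqcrfs1. Uqcrfs1 was the lowest of the complex, at 1024.3 in TAZ-deficient and 1127.5 in wild type lung (1.101-fold lower, by 1 probe set). Uqcrc1 read 1497.9 in TAZ-deficient and 1431.8 in wild type lung, and Uqcrc2 read 1526.9 in TAZ-deficient and 1498.6 in wild type lung. Of the small subunits, Uqcrh, the acidic hinge protein beside cytochrome c1, was the highest at 2031.2 in TAZ-deficient and 1862.3 in wild type lung (1.09-fold). The ratios of Uqcrb, Uqcr11 and Uqcrq lay between 0.99 and 1.02. The median log2 ratio was 0.02 on the deposited scale and turned to -0.02 under quantile normalization and loess. Cytochrome c1 (Cyc1), which completes the complex but carries another kind of symbol, read 1424.6 in TAZ-deficient and 1358.4 in wild type lung. Its electron acceptor cytochrome c (Cycs) read 2595.4 in TAZ-deficient and 2457.3 in wild type lung by its brightest probe set, and 1552.6 in TAZ-deficient and 1595.3 in wild type lung by the next.

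By the brightest probe set of each gene, the broadly expressed subunits of complex IV had the smallest spread of the role groups. Cox4i1, Cox5a, Cox5b, Cox6a1, Cox6b1, Cox6c, Cox7a2, Cox8a and the supercomplex factor Cox7a2l all had ratios between 1.01 and 1.09 on the deposited scale, with an SD of the log2 ratio of 0.03 over the 9 genes. The SD was 0.04 for the other membrane subunits of ATP synthase (5 genes) and for its peripheral stalk (4 genes), so the ranking is a close one. Other probe sets of the 9 genes above the floor had log2 ratios from -0.08 (Cox7a2) to 0.14 (Cox7a2l). Cox4i1, the regulatory subunit that binds ATP, read 2917.9 in TAZ-deficient and 2773.7 in wild type lung. Cox5a and Cox5b read 2675.2 and 2526.3 in TAZ-deficient lung, against 2620.1 and 2493.3 in wild type lung. Both, with Cox6a1 and Cox6c, had ratios below 1 under quantile normalization and loess, and Cox6b1 and Cox7a2 under loess. Cox7a2 read 3575.8 in TAZ-deficient and 3440.1 in wild type lung by its brightest probe set, and 1888.3 in TAZ-deficient and 1995.9 in wild type lung by its other. Cox8a was the highest of them, at 1224.7 in TAZ-deficient and 1122.6 in wild type lung. The median log2 ratio of all 13 measured complex IV genes was 0.06 on the deposited scale, 0.0026 after quantile normalization and -0.0037 after loess. Both probe sets of Cox7c, a broadly expressed subunit, were below the floor on both arrays (5.9 and 4.7 in the TAZ-deficient pool, 6.7 and 5.8 in wild type), so no ratio is given.

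The 4 measured tissue isoforms of complex IV lay below the brightest 25% of genes and spread in both directions. Cox6b2, the testis isoform of the subunit that faces cytochrome c, was the lowest member of all, at 178.0 in TAZ-deficient and 237.5 in wild type lung (1.33-fold lower), while its broadly expressed counterpart Cox6b1 read 3028.6 in TAZ-deficient and 2915.3 in wild type lung. Cox8c, another testis isoform, was 1.31-fold higher at 56.1 in TAZ-deficient and 42.8 in wild type lung, and its second probe set was below the floor. Of the muscle isoforms, Cox6a2 read 18.3 in TAZ-deficient and 18.7 in wild type lung. Cox7a1 read 22.3 in TAZ-deficient and 18.6 in wild type lung, just short of 1.2-fold. Cox8b was below the floor on both arrays (1.3 in TAZ-deficient and 8.3 in wild type lung), and so was the testis isoform Cox7b2. Of the heart muscle markers, Myl7 read 46.2 in TAZ-deficient and 83.6 in wild type lung and Actc1 435.1 in TAZ-deficient and 551.9 in wild type lung. All 8 skeletal muscle markers were below the floor in the TAZ-deficient pool, and in wild type only Ckm (10.6 in TAZ-deficient and 23.3 in wild type lung) and Acta1 (11.7 in TAZ-deficient and 15.7 in wild type lung) exceeded it. In the brown fat list 2 of 6 genes were measured, Prdm16 at 126.1 in TAZ-deficient and 112.3 in wild type lung and Dio2 at 17.9 in TAZ-deficient and 23.8 in wild type lung, and Ucp1, Cidea, Elovl3 and Otop1 were below the floor on both arrays. The part of muscle cells in the values of Cox6a2, Cox7a1 and Cox8b was not tested, these signals being near or below the floor.

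**Figure D3:**
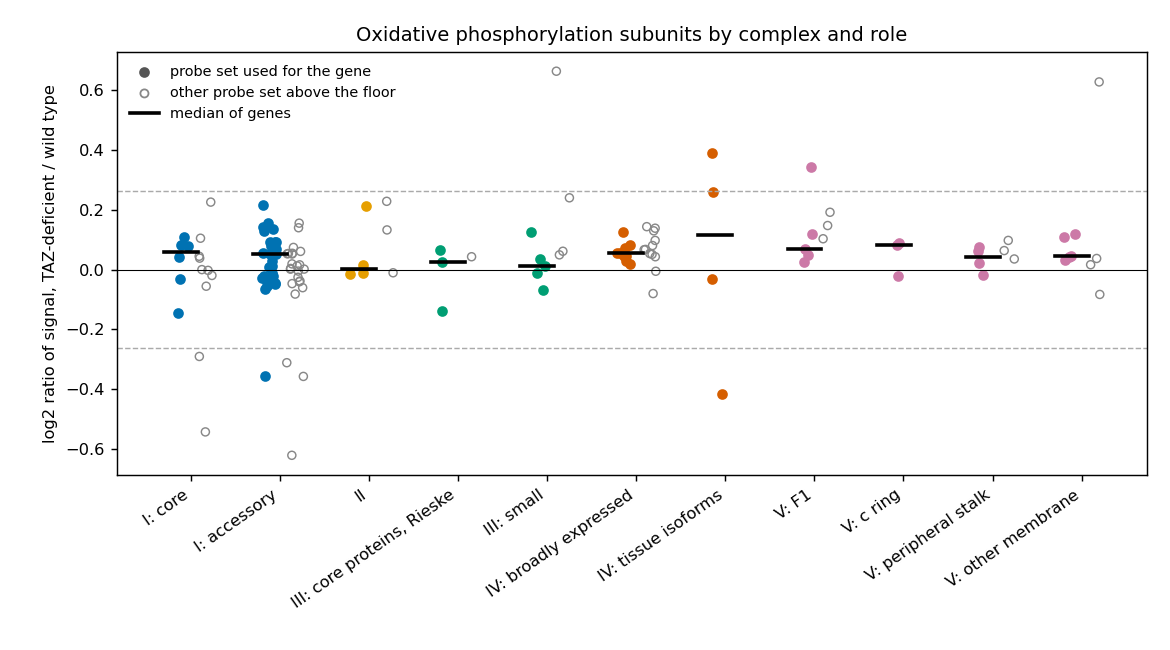
Log2 ratio of each member probe set above the floor, by complex and role, with the probe set used for the gene filled, other probe sets open and the median of genes as a bar; dashed lines mark 1.2-fold. By the filled probe sets the broadly expressed complex IV genes lie closest together, and the probe sets beyond the dashed lines are mostly dim ones.

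Differences of 1.2-fold or more came mainly from dim probe sets. Of 140 member probe sets above the floor, 127 had a mean signal of at least 100 units, and 3 of these differed by 1.2-fold, namely those of Atp5b and Cox6b2 and 1 of Ndufs8. Of the 13 dimmer ones, 8 did. Of 42 genes with more than 1 probe set above the floor, all probe sets were above 1 in 20, all below 1 in 1 (Ndufa10) and on both sides in 21. The 2 brightest probe sets had the same direction in 25 of 42 member genes, and in 3023 of 5201 among all genes with 2 probe sets above the floor. Ndufa10 read 1018.9 in TAZ-deficient and 1027.7 in wild type lung by its bright probe set, and 22.1 in TAZ-deficient and 34.0 in wild type lung by its dim one (1.54-fold lower).

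Probe sets on both sides of 1, with at least 1 of them 1.2-fold different, were found for 5 genes. Uqcr10, a small subunit of complex III, read 937.5 in TAZ-deficient and 983.3 in wild type lung by its brightest probe set. Its other 2 probe sets, both designed from 1 further sequence record, read 151.7 in TAZ-deficient against 128.4 in wild type lung and 69.9 in TAZ-deficient and 44.1 in wild type lung (1.59-fold higher). For Ndufs8 the split ran the other way. The 4 brighter probe sets had ratios between 0.99 and 1.06, and the 2 that share another record read 518.0 in TAZ-deficient against 633.6 in wild type lung (1.22-fold lower) and 33.9 in TAZ-deficient and 49.4 in wild type lung (1.46-fold lower). The other record shared by probe sets of Ndufs8 held ratios of 1.06 and 0.998, on both sides of 1. Which transcript these records stand for is not given in the sources used here. Atp5j2, Ndufa3 and Ndufb8 each had bright probe sets within 1.1-fold and 1 dim probe set beyond 1.2-fold. The dim probe set of Atp5j2 was below the floor in wild type, so that its 1.55-fold is a lower bound.

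**Figure D4:**
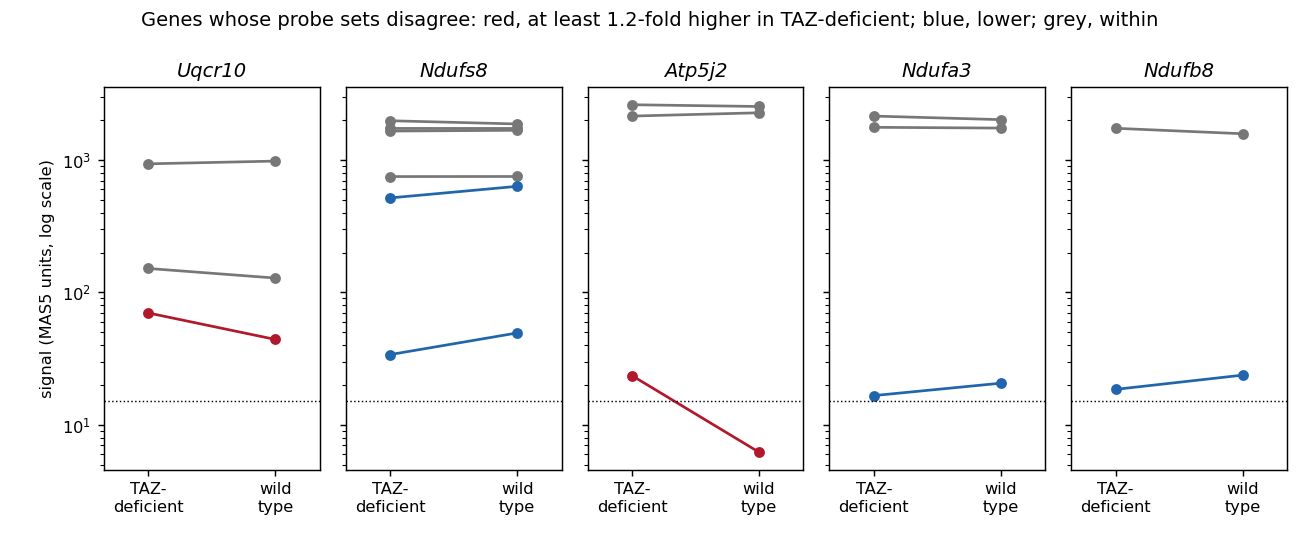
Signal (log scale) of every probe set of 5 genes on the TAZ-deficient (left) and wild type (right) array, joined by a line, with the floor of 15.2 dotted. Lines beyond 1.2-fold (red, higher in TAZ-deficient; blue, lower) belong to dim probe sets, apart from 1 of Ndufs8 at 518.0 in TAZ-deficient and 633.6 in wild type lung.

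Promoter sequence was examined as a feature that the choice of members did not use. The regulators NRF1 and the ETS factor GABP are known to bind many genes of the respiratory chain, ERR factors and YY1 to bind some of them, TEAD factors are the partners of TAZ, and HIF acts under low oxygen. RefSeq promoter windows of build GRCm38.p6, from 250 bases before to 50 after the gene start, were available for 63 of the 76 measured members. The windows of Atp5b, the bright member with the highest ratio, of Cox6b2, the member with the lowest, of its counterpart Cox6b1 and of Sdhb, which holds NRF1 and ETS letters together, are shown 5′ to 3′. They lie at chr10:128083057-128083356 (plus strand, Atp5b), chr4:140961021-140961320 (plus strand, Sdhb), chr7:30626065-30626364 (minus strand, Cox6b1) and chr7:4753045-4753344 (minus strand, Cox6b2). Capitals mark the letters of NRF1 (GCATGCG), ETS (CCGGAAG), YY1 (ATGGCGG), ERR (AAGGTCA), TEAD (GGAATG), HIF (ACGTG), the CCAAT box (CCAAT) and the GC box (GGGCGG) on either strand.
Atp5b: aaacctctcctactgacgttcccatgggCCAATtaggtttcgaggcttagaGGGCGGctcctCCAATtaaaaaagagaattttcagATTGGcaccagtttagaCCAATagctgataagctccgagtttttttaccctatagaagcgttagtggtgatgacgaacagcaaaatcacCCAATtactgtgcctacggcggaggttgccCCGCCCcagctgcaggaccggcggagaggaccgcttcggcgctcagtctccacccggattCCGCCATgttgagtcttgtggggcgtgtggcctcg
Sdhb: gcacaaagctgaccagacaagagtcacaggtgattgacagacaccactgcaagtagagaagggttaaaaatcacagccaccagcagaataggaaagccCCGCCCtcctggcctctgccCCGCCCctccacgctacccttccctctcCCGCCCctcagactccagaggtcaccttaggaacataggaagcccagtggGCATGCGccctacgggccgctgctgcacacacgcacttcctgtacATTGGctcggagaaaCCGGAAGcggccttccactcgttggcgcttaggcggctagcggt
Cox6b1: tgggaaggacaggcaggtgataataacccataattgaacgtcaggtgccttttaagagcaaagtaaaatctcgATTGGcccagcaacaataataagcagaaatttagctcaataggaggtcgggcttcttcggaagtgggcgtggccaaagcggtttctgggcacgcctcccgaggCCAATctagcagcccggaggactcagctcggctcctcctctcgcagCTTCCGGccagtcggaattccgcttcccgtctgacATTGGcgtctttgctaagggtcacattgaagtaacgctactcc
Cox6b2: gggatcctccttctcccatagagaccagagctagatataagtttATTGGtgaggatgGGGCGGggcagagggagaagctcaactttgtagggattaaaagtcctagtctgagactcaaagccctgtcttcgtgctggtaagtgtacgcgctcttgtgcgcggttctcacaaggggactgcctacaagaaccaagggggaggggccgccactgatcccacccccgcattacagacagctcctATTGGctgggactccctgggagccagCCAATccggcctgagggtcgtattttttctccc

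The Atp5b window held 5 CCAAT letters, 2 GC boxes and the YY1 letters downstream of the start. That number of CCAAT matches was reached by 2 of 68 member windows (2.94%), 0.463% of windows of all measured genes and 0.271% of all 32851 windows. The limit of 5 was taken from Atp5b, which was picked for its ratio and is 1 of these 2 windows. These shares are therefore no measure of enrichment among members. Sdhb held the NRF1 letters and, after the start, the ETS letters, together with 3 GC boxes and 1 CCAAT box. Cox6b1 held the ETS letters and 3 CCAAT boxes, and Cox6b2 held 3 CCAAT boxes and 1 GC box. None of the 4 held the TEAD or HIF letters. Among members, 15.9% of genes held the NRF1 letters, against 7.25% of all measured genes with a window and 4.01% of all genes in the table. The ETS letters were in 27% of members, 19.7% of measured genes and 9.93% of all, the ERR letters in 11.1%, 3.83% and 5.38%, and the YY1 letters in 14.3%, 9.26% and 4.69%. The TEAD letters were in 11.1% of members, 14.4% of measured genes and 16.6% of all, and the HIF letters in 27%, 29.5% and 21.8%. CCAAT boxes were in 41.3%, 42.5% and 41.1%, and GC boxes in 42.9%, 69.7% and 38.2%. YY1 and GC box letters can share bases. A match describes letters in the window and is not a binding site, and no match says only that the letters are not there. Among the members with a window, those with the HIF letters had a median log2 ratio of 0.08 (17 genes) and those without 0.05 (46 genes), and those with the TEAD letters had 0.04 (7 genes) and those without 0.06 (56 genes). For the other 6 motifs the medians with and without the letters all lay between 0.05 and 0.06. These medians are on the deposited scale and were not tested.

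Other gene lists gave the setting of the subunits. Regulators of mitochondrial biogenesis had 4 of 16 ratios above 1 and 12 below, a median log2 ratio of -0.08 on the deposited scale and 0 genes 1.2-fold higher. The 1 gene at least 1.2-fold lower was the dim nuclear receptor Ppara (18.1 in TAZ-deficient and 22.8 in wild type lung). The mitochondrial ribosome, 76 genes, had 29 above and 47 below 1 with a median of -0.04, against 0.05 for the subunits, on the deposited scale. The 2 medians were -0.046 and 0.0013 after quantile normalization, and -0.0425 and 0.0055 after loess. Mrpl33 read 286.4 in TAZ-deficient and 428.5 in wild type lung (1.496-fold lower) and Mrps18b 235.7 in TAZ-deficient and 289.3 in wild type lung (1.23-fold lower). The tricarboxylic acid cycle and pyruvate dehydrogenase list had 11 of 16 above 1 and none beyond 1.2-fold, its brightest members Mdh2 and Idh3g having ratios of 1.09 and 1.02. Carriers, pores and import genes were split 8 and 8 on the deposited scale, and 2 above and 14 below 1 after quantile normalization, with Tomm20 at 1.04 and Slc25a3 at 0.97.

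Assembly factors were likewise close to wild type. The complex I assembly factors, which build the enzyme but are not part of it, had 10 of 16 ratios above 1 and a median log2 ratio of 0.04, with Timmdc1 at 117.2 in TAZ-deficient and 85.9 in wild type lung (1.36-fold higher). The list for complex IV had 12 of 19 above 1 and a median of 0.02. It counted Lrpprc, a binding protein of mitochondrial mRNA that is not an assembly factor in the strict sense. Lrpprc read 180.2 in TAZ-deficient and 147.8 in wild type lung (1.22-fold higher). The list for complexes II, III and V was split 7 and 7. It counted Dmac2, which is an assembly factor of complex I and was not among the 16 above. Dmac2 read 56.8 in TAZ-deficient and 77.9 in wild type lung (1.37-fold lower). Electron carriers and ubiquinone synthesis genes had 6 of 16 above 1, with Coq5 at 61.8 in TAZ-deficient and 76.8 in wild type lung (1.24-fold lower). No gene of these 4 lists reached 1.5-fold.

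The list of hypoxia-linked genes holds mitochondrial regulators and isoforms, and also genes that act elsewhere, among them the glucose transporter Slc2a1 of the plasma membrane and the cytosolic enzyme Ldha. Of 12 measured genes 10 were above 1, 5 at least 1.2-fold higher and 1 at least 1.5-fold, with a median log2 ratio of 0.20, or 0.16 after quantile normalization and after loess. Pdk1, the kinase that inhibits pyruvate dehydrogenase and so holds back the conversion of pyruvate to acetyl-CoA, read 486.1 in TAZ-deficient and 373.4 in wild type lung (1.30-fold higher), and its other 2 probe sets above the floor were 1.23-fold and 1.48-fold higher. Bnip3 was 1.49-fold, Hk2 1.40-fold and Slc2a1 1.51-fold higher. The same list holds 2 isoforms of the respiratory chain itself that low oxygen is known to induce. Ndufa4l2 read 166.1 in TAZ-deficient and 176.7 in wild type lung, and Cox4i2 read 48.4 in TAZ-deficient and 47.4 in wild type lung.

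**Figure D5:**
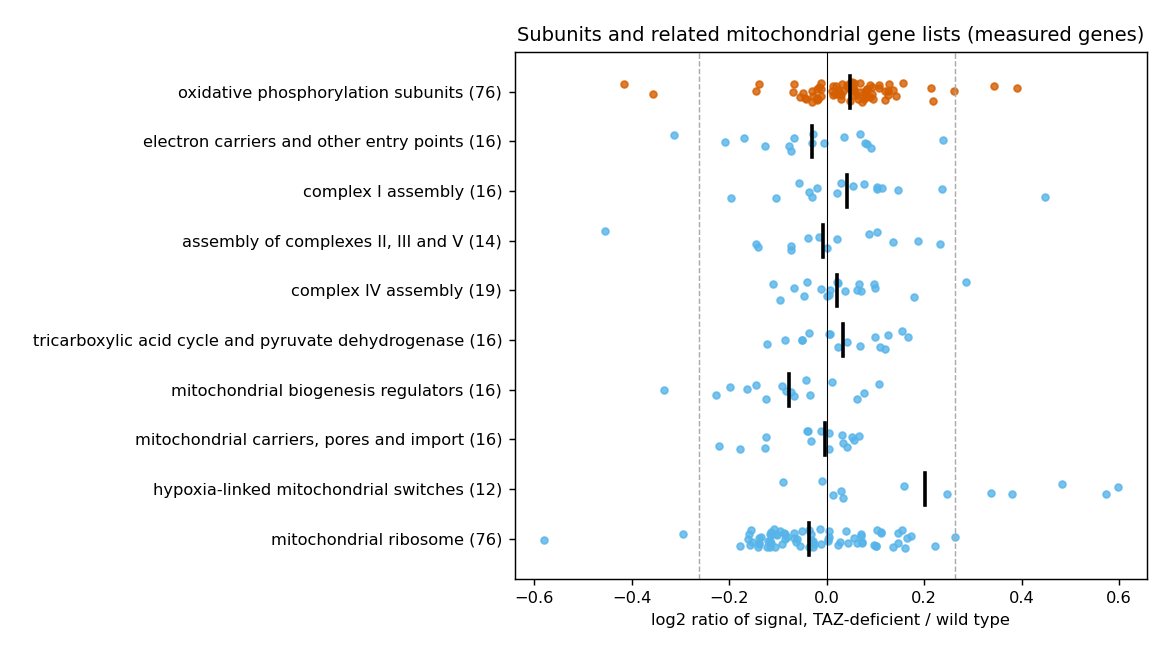
Log2 ratio of each measured gene (dots) and the median (bar) for the oxidative phosphorylation subunits and 9 related lists, with the number of measured genes in brackets and dashed lines at 1.2-fold. On the deposited scale shown, the subunits cluster just above 0 with a median of 0.05. The mitochondrial ribosome lies at -0.04, and the hypoxia-linked genes reach 0.60.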

How the data were processed

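Pooled whole lung RNA of each group was hybridised to 1 Affymetrix one-colour array. The authors deposited linear intensity values, 1 for every probe set. The submitters' processing notes name GCOS and MAS5 without a version. The mean of an array, trimmed by 2% at either end, was 100.001 on both. The platform annotation gave 1 gene for 34945 of 45101 probe sets, and those with several genes or none were left out. Ratios, counts and medians were computed with Python 3.11.15, numpy 2.4.6, pandas 2.3.3 and statsmodels 0.14.6 (loess span 0.3), and the calculations were tested on simulated data. A gene was represented by its brightest probe set on the floored log2 scale. Alternatives changed the floor, the scaling, the choice of probe set and the members, or added a pseudocount of 16 units in place of the floor. Named were all members at least 1.2-fold different, the extremes of each complex, core subunits, isoform pairs, disagreeing and unmeasured members, and up to 4 genes per related list. Further genes were named after their values were seen. The members and lists were chosen with earlier results of these data known. The number of arrays limits every value. Mitochondrially encoded subunits were not analysed here.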

Additional observations from a re-analysis of the deposited data

How the results depend on the processing

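No paired analysis was possible because each group is 1 array. Counts of members moved in these cases. At least 1.2-fold higher were 2 members as reported, 3 after quantile normalization, loess or centring and without shared probe sets, 1 under the high floor (75th percentile of signal) and 4 of 140 probe sets counted singly. At least 1.2-fold lower were 2 as reported, 3 without shared probe sets, under the low floor or when probe sets of a gene were combined by their median, 1 under the high floor and 7 probe sets counted singly. At 1.5-fold the count was 0 in both directions as reported, 1 higher without shared probe sets (Uqcr10, by its dim probe set), 1 lower under the low floor, the 25th percentile (Cox8b, 1.3 in TAZ-deficient and 8.3 in wild type lung), and 2 higher and 1 lower for probe sets counted singly. Ratios above 1 numbered 55 of 76 as reported, 38 after quantile normalization, 39 after loess, 32 of 54 without shared probe sets and 100 of 140 probe sets.

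The median log2 ratio of the members, 0.05 as reported, was 0.0013 after quantile normalization, 0.0055 after loess, 0.061 with the median of all genes at 0 and 0.028 without shared probe sets. For complex I it was 0.019 after quantile normalization, 0.026 after loess, 0.016 with the median over probe sets, 0.014 over single probe sets and -0.0023 without shared probe sets. For complex II it was 0.089 with the median over probe sets. For complex III it was -0.0233 after quantile normalization and -0.0236 after loess, for complex IV 0.0026 and -0.0037, and for complex V 0.013 and 0.016. Quantile normalization turned the ratio of 15 members and loess that of 16 to below 1. Atp5c1 and Atp5d, above 1 as reported, had a log2 ratio of 0 after quantile normalization. Over all settings that gave a value, 44 members kept their direction (32 above and 12 below 1), Atp5b, Ndufb7, Cox6b2, Ndufb1, Ndufs1 and Uqcrfs1 among them. For genes with 1 probe set, such as Atp5b and Cox6b2, the choice among probe sets could not change the direction. The floors and the pseudocount changed the direction of no member.

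The low and the high floor left 16150 and 7086 measured genes, against 12040 as reported. Among these, the counts at least 1.2-fold higher were 2274 under the low and 227 under the high floor, and lower 2990 and 298. At least 1.5-fold higher were 859 and 14, and lower 1179 and 13. With the pseudocount, 60 of 12040 genes were at least 1.5-fold higher and 77 lower. Each floor admits a different number of genes, and the cause of these shifts was not tested. The median log2 ratio of all measured genes was -0.019 and -0.0041 under these floors, -0.0074 after quantile normalization and -0.0055 after loess. It was 0 after centring, -0.016 with the median over probe sets, -0.019 without shared probe sets and -0.012 with the pseudocount. Leaving out coupling or assembly factors was not run, since a search for a short list of such names, mainly of ATP synthase, found 0 members. The supercomplex factor Cox7a2l was not on that list and was kept throughout. Including Sdhaf genes moved no result past these limits.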

Other observations

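The Sdhaf genes, which insert cofactors into succinate dehydrogenase and were not counted as subunits, read close to wild type. Sdhaf1 read 236.2 in TAZ-deficient and 261.1 in wild type lung, and Sdhaf4 read 353.5 in TAZ-deficient and 357.2 in wild type lung. Among the regulators of mitochondrial biogenesis, Nrf1 read 96.9 in TAZ-deficient and 108.5 in wild type lung, Tfam 423.6 in TAZ-deficient and 436.0 in wild type lung, and Gabpa 538.2 in TAZ-deficient and 551.4 in wild type lung, while the coactivator Ppargc1a read 34.6 in TAZ-deficient and 32.1 in wild type lung. These genes were picked from the list after their values were seen.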
